A study of Mus musculus with 10 samples.

Results

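The genes described here are 37 genes of DNA damage signalling and repair, grouped by the step they serve: break sensing and signalling (9 genes), homologous recombination (7), the Fanconi anaemia pathway (3), end joining (5), base excision and single-strand break repair (8), nucleotide excision repair (3) and mismatch repair (2). They were chosen by gene symbol and not by their values. On the arrays 36 of them had a probe set naming that gene alone, out of 18193 genes in all, and each gene was represented by its brightest probe set. H2ax is listed under its older symbol H2afx, and Xrcc2 was not analysed here. Of the 36 genes, 35 passed the filter on dim values and were tested among 12568 genes. The exception was Ogg1, the glycosylase that removes oxidised guanine, whose values ran from 5.76 to 7.29 on the log2 scale and lay above the array median on 1 array.

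RNA of distal colorectum was measured on 10 arrays from C57BL/6J mice of 2 genotypes, Pdgfc+/+ (wild type) and Pdgfc-/- (knockout of the gene for platelet-derived growth factor C). Unirradiated wild type and unirradiated knockout had 2 arrays each, and irradiated wild type and irradiated knockout had 3 each. Irradiated mice received 25 Gy of local gamma radiation at 2.14 Gy per minute under chloral hydrate, and tissue was taken 8 weeks later near the anus, from irradiated and control mice alike. The labels call the replicates biological but do not state whether knockout was limited to a cell type, nor the age or sex of the mice.

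Ionising radiation breaks both strands of DNA. The MRE11-RAD50-NBN complex finds the ends, the kinases ATM and ATR pass the signal to CHEK1 and CHEK2, and ends are rejoined by non-homologous end joining or copied from the sister chromatid by homologous recombination. Much of the early response runs through phosphorylation of proteins already present, whereas p53 acts by raising transcription of its targets. Several replication-linked repair genes are transcribed mainly in cycling cells, such as those of the crypt base. These arrays measure RNA abundance weeks after the dose, not phosphorylation or repair.

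Only 1 repair gene, Xpa, changed in any comparison by the adjusted test, and its promoter region is shown here for that reason. XPA is the scaffold protein that verifies damage and gathers the other factors in nucleotide excision repair. RefSeq (GRCm38.p6) holds an upstream stretch for 31 of the 37 genes. The 217 bases that precede the annotated Xpa gene, at chr4:46196345-46196561 on the minus strand, read 5′ to 3′ as follows, with capitals marking a CCAAT box and the letters TGCGCANGCG, which the factor NRF1 is known to bind.
Xpa: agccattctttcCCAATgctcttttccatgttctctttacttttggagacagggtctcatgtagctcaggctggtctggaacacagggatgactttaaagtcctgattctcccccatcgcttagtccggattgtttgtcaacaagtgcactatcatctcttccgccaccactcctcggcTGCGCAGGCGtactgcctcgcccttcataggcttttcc

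The letters TGCGCANGCG, searched on both strands of the 250 bases before each start, were found for 4 of the 31 genes, Atm, Ercc2, Lig4 and Xpa. Counted by start, 5 of 35 stretches (14.3%) held them, against 2.6% of 32851 starts in the whole table. The stretches around 1 match of each gene are given because these 4 genes share the letters and had different irradiation values. Capitals mark the match. Some genes have several annotated starts, and 24 of the 30 bases shown for Atm lie inside the span of its gene.
Xpa (chr4:46196363-46196392, minus strand): actcctcggcTGCGCAGGCGtactgcctcg
Ercc2 (chr7:19381908-19381937, plus strand): ctcaccgccaTGCGCACGCGccaattttcc
Atm (chr9:53536805-53536834, minus strand): tggtgcgcacTGCGCAGGCGcgtttcctca
Lig4 (chr8:9977716-9977745, minus strand): tgcacccctaTGCGCATGCGcaggacactg
In wild type the irradiation differences of these genes were 1.16 for Xpa, -0.79 for Ercc2, 0.20 for Atm and -0.11 for Lig4 on the log2 scale. Those values do not run in 1 direction.

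The letters TTTCCCGC, TTTCGCGC, TTTGCCGC and TTTGGCGC, which E2F factors bind in genes of the cell cycle, were found on either strand for 4 genes, Brca2, Chek2, Mdc1 and Xrcc6. That was 4 of 35 stretches (11.4%), against 1.9% of all starts. The 4 stretches are given because the same motif recurs across break sensing, recombination and end joining. Capitals mark the match, which lies on the opposite strand in all but Mdc1. The 28 bases shown for Brca2, Chek2 and Xrcc6 lie before 1 annotated start but inside the span of the gene, which begins further upstream, as do 3 of the 26 bases for Mdc1.
Brca2 (chr5:150522443-150522470, plus strand): ttaggccacaGCGGGAAAcagacacaca
Chek2 (chr5:110839821-110839848, plus strand): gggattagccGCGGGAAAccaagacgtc
Mdc1 (chr17:35841472-35841497, plus strand): cttcagcctgTTTCCCGCcggtagcc
Xrcc6 (chr15:82016313-82016340, plus strand): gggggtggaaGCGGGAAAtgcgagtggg
The irradiation differences of these genes in wild type were 0.07 for Brca2, 0.34 for Chek2, 0.03 for Mdc1 and 0.17 for Xrcc6. A CCAAT box, on either strand, stood in 19 of the 35 stretches (54.3%), against 33.8% of all starts. The p53 half-site was found in 1 stretch (2.9%), that of Fanca, against 7.1% of all starts. The motifs were chosen after the values had been seen, and a match is a description of letters.

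Some properties of the arrays bear on every value that follows. Array medians ran from 6.64 to 7.18. Pdgfc stood at 7.01 and 7.50 in unirradiated wild type against 6.42 and 5.62 in unirradiated knockout. After irradiation it stood at 8.56 to 8.75 in wild type against 6.26 to 7.15 in knockout; whether its probes lie in the deleted part is not stated. Xist and Y-linked transcripts gave 4 arrays a female pattern (Xist 13.48 to 14.18), namely the 3 irradiated wild type arrays and irradiated knockout replicate 1, and gave 6 a male pattern (Xist 6.19 to 7.27). In wild type, irradiation and this pattern therefore cannot be told apart. As a covariate below, the pattern is estimated within irradiated knockout only, from replicate 1 against the other arrays of that group. Fits with that covariate thus rest on 1 array and are no firm adjustment for sex. Cell type markers also moved with irradiation. Over 11 colonocyte markers, all above the array median on unirradiated arrays, the log2 of the summed signal was 17.18 to 17.55 on unirradiated and 15.74 to 16.88 on irradiated arrays. Over 8 measured squamous epithelium markers it was 9.25 to 11.21 and 14.43 to 16.12, and over 5 macrophage markers 10.07 to 11.37 and 13.24 to 14.30. Some sums also differed between the unirradiated genotypes. Over 4 measured striated muscle markers the sum was 8.43 to 8.83 in wild type and 10.70 to 11.32 in knockout. Over 4 measured B and plasma cell markers it was 13.06 to 13.26 and 9.71 to 12.12. Macrophage sums were 11.36 to 11.37 and 10.07 to 10.95, and squamous sums 10.20 to 11.21 and 9.25 to 9.43. T cell sums were also lower in knockout without overlap, and smooth muscle and crypt stem cell sums were higher. Colonocyte, goblet cell and fibroblast sums overlapped. In whole tissue, fewer cells of a type and less RNA per cell cannot be told apart, and the part of these shifts in the repair genes' values was not tested. The 3′ minus 5′ difference of the Gapdh control probe sets was -0.54 to -0.35 on irradiated arrays and -0.32 to 0.02 on the others. For the Actb control probe sets it overlapped, at 0.44 to 0.58 and 0.35 to 0.66.

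The first comparison was irradiated against unirradiated wild type, groups that also differed in the Xist and Y-linked pattern. In it 1 of the 35 repair genes changed, Xpa, which rose by 1.16 log2 units, while 24.1% of all genes tested changed. The test was limma with Benjamini-Hochberg adjustment over the 12568 genes, at an adjusted p of 0.05. That is 2.86% of the repair genes. Their differences ran from -0.79 (Ercc2) to 1.16 (Xpa), with a median of 0.11 against 0.07 over all genes. Their median size was 0.23, against 0.39 over all genes. Of the 35, 31 differed by under 0.5 log2 units, compared with 59.0% of all genes. Irradiated and unirradiated arrays did not overlap for 11 repair genes (31.4%), 8 higher and 3 lower, against 53.6% of all genes. The sign of the small median depended on the scaling: with quantile normalization it was -0.07 for repair genes and -0.02 for all genes, and with arrays centred on their median over tested genes it was -0.10 and -0.14. With the Xist and Y-linked pattern as a covariate it was 0.31 against 0.10, and 31 of 35 values were positive in place of 21. Leaving out 1 array gave 0.05 (without irradiated wild type replicate 2) to 0.22 (without unirradiated wild type replicate 2).

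In knockout, irradiation changed 0 of the 35 repair genes in limma, and 0 had an unadjusted p under 0.05, while 23.5% of all genes changed and 37.7% had an unadjusted p under 0.05. Differences ran from -0.73 (Ercc2) to 0.58 (Xrcc3), with a median of -0.03 against 0.01 over all genes. That median was 0.07 with the pattern as a covariate and from -0.11 to 0.07 when 1 array was left out, lowest without unirradiated knockout replicate 1. The median size was 0.18 against 0.40. Of the 35 genes, 32 differed by under 0.5 log2 units, compared with 59.1% of all genes. The share of all genes called was 10.6% in wild type without unirradiated wild type replicate 1 and 14.4% without irradiated wild type replicate 2. In knockout it was 9.51% and 10.3% without either unirradiated array, 13.7% without irradiated knockout replicate 1 and 15.2% without replicate 3. In each of these fits 1 repair gene was called in wild type and 0 in knockout.

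A repair gene that was not called is not shown to be unchanged, so the intervals matter. The standard error of a repair gene's irradiation difference had a median of 0.23 in both genotypes. In wild type, 26 of 35 genes (74.3%) had a 95% interval that stayed within 1 log2 unit either way, and in knockout 28 (80.0%) did. Over all genes the shares were 53.4% and 53.5%. In wild type the 9 genes whose interval reached past 1 log2 unit were Blm, Ercc2, Fancc, Lig1, Nbn, Rad52, Ung, Xpa and Xrcc3. For the other 26 genes a wild type difference of 1 log2 unit, which is 2-fold, lay outside the interval.

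**Figure D1:**
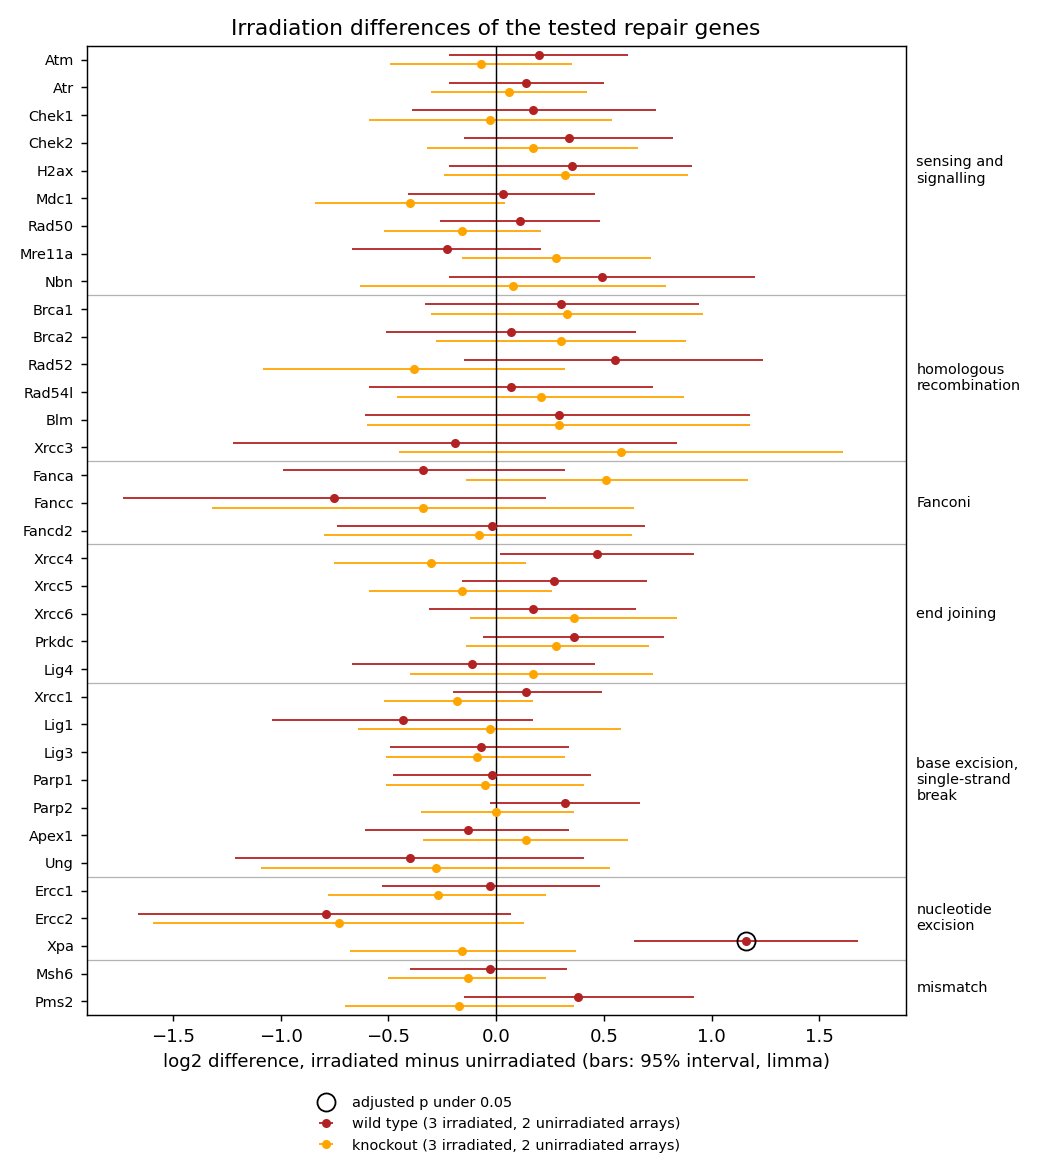
Log2 difference between irradiated and unirradiated arrays (horizontal axis) for each of the 35 tested repair genes (rows, by pathway), with the 95% interval from limma as bars, in wild type (red) and knockout (orange). A black ring marks the 1 gene with an adjusted p under 0.05, Xpa in wild type at 1.16, and the other points lie between -0.79 and 0.58.

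Xpa had signals of 8.10 and 7.86 in unirradiated wild type and 9.26, 9.20 and 8.96 in irradiated wild type (log2 scale). In knockout it had 9.33 and 9.09 without irradiation and 9.41, 8.63 and 9.12 after it. The 2 unirradiated wild type arrays were thus the lowest of the 10, and no array of another group fell to their level. The wild type means were 7.98 ± 0.17 (SD, n = 2) and 9.14 ± 0.16 (SD, n = 3), and the knockout means 9.21 ± 0.17 (SD, n = 2) and 9.05 ± 0.40 (SD, n = 3). In limma the difference in wild type was 1.16 ± 0.23 (SE; 95% interval 0.64 to 1.68; adjusted p = 0.0077), higher in 3 of 3 irradiated arrays. In knockout it was -0.16 ± 0.23 (adjusted p = 0.66), with overlapping groups.

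The Xpa call in wild type remained when any array was left out, with adjusted p from 0.0021 to 0.046 in limma. It was lost when the Xist and Y-linked pattern entered the limma fit as a covariate, where the difference was 0.62 (adjusted p = 0.52). In that fit 16 genes of all tested were called in wild type, and the covariate rested on 1 array, irradiated knockout replicate 1.

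Without irradiation Xpa was 1.23 ± 0.25 log2 units higher in knockout than in wild type (SE; limma, unadjusted p = 7.7e-04, adjusted p = 0.057). All 4 of these arrays had the male pattern. The interaction, the knockout's irradiation difference minus that of wild type, was -1.31 ± 0.33 (SE; limma, unadjusted p = 0.0027, adjusted p = 0.21), so a difference between the genotypes' responses did not pass the test. These 3 Xpa values all rest on the same 2 unirradiated wild type arrays and are not separate observations of the gene.

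Both other Xpa probe sets, which lay below the array median on all 10 arrays and were not tested, also had their lowest mean in unirradiated wild type. The second probe set gave 3.66 and 3.06 there, 6.21 and 6.74 in unirradiated knockout, 5.73, 6.89 and 5.70 in irradiated wild type and 6.63, 6.28 and 6.24 in irradiated knockout. The unirradiated wild type arrays again stood apart from the other 8. The third gave 1.06 and 4.95 in unirradiated wild type, against 3.84 to 5.83 over the other 8 arrays, so there the groups overlapped. Differences at such dim signals are uncertain.

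**Figure D2:**
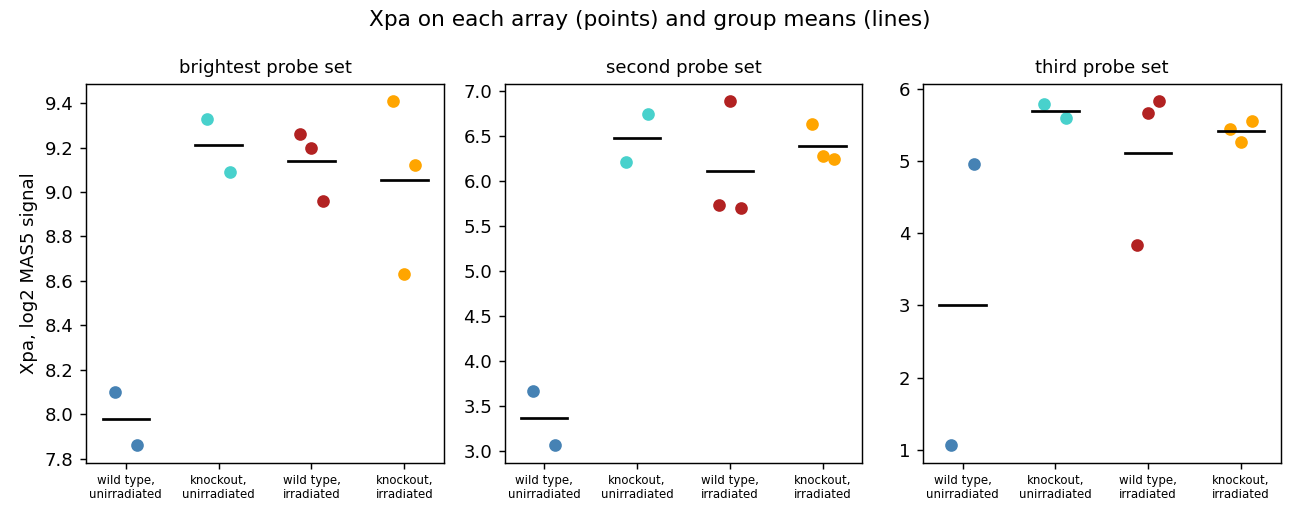
Log2 MAS5 signal of Xpa (vertical axes, each panel with its own scale that does not start at 0) on each of the 10 arrays by group, for its 3 probe sets; points are arrays and lines are group means. In the brightest probe set the unirradiated wild type arrays sit at 7.86 and 8.10 and the other 8 arrays between 8.63 and 9.41.

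The other genes of nucleotide excision repair did not follow Xpa. Ercc2, a helicase of the TFIIH complex that opens DNA around the lesion, had 8.69 and 8.28 in unirradiated and 7.46, 7.78 and 7.83 in irradiated wild type. In knockout it had 8.27 and 7.89 without irradiation and 6.54, 7.46 and 8.03 after it. The wild type groups did not overlap and the knockout groups did. Its differences were -0.79 ± 0.39 and -0.73 ± 0.39 (SE; limma, adjusted p = 0.16 and 0.19), neither of which passed. With the Xist and Y-linked pattern as a covariate the wild type value was 0.41. Ercc1, part of the nuclease that cuts 5′ of the damage, differed by -0.03 in wild type and -0.27 in knockout.

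Among the 9 genes of break sensing and signalling 0 changed in either genotype, against 24.1% and 23.5% of all genes in wild type and knockout. All 9 differed by under 0.5 log2 units in both, compared with 59.0% and 59.1% of all genes. With so few genes in a pathway, 0 calls here and below say little about the pathway as a whole. In wild type 8 of the 9 values were positive, with a median of 0.17, and in knockout 5 were, with a median of 0.06. With centred arrays 3 of 9 were positive in either genotype, with medians of -0.04 and -0.06. The kinase genes Atm and Atr differed by 0.20 and 0.14 in wild type and by -0.07 and 0.06 in knockout. The checkpoint kinases Chek1 and Chek2 differed by 0.17 and 0.34, then -0.03 and 0.17. H2ax, the histone variant that is phosphorylated around breaks, differed by 0.35 and 0.32, with standard errors of 0.25.

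Mdc1, the adaptor that binds phosphorylated H2AX, had the smallest p of any repair gene for irradiation in knockout. It had 8.54 and 8.89 without irradiation and 8.26, 8.57 and 8.13 after it. The groups overlapped, since irradiated replicate 2 lay above unirradiated replicate 1. The difference was -0.40 ± 0.20 (SE; limma, adjusted p = 0.16), while in wild type it was 0.03.

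Of the genes of the MRE11-RAD50-NBN complex, Rad50 differed by 0.11 in wild type and -0.16 in knockout, and Nbn by 0.49 and 0.08. Mre11a, the nuclease, differed by -0.23 and 0.28. None of these passed the test, and the 3 genes did not share a sign in either genotype.

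Homologous recombination had 6 tested genes, with 0 called in wild type and knockout, against 24.1% and 23.5% of all genes. Their medians were 0.18 in wild type and 0.30 in knockout. The wild type median was -0.10 with quantile normalization and -0.03 with centred arrays, while that of knockout stayed positive at 0.21 and 0.18. Brca1 and Brca2, the breast cancer susceptibility genes that act in this pathway, differed by 0.30 and 0.07 in wild type and by 0.33 and 0.30 in knockout. Blm, the helicase mutated in Bloom syndrome, differed by 0.29 in both, with a standard error of 0.40. Rad52, which anneals single strands, had 6.78 and 7.16 in unirradiated and 7.21, 7.99 and 7.34 in irradiated wild type, and in knockout 7.95 and 7.39, then 7.42, 7.21 and 7.23. Its wild type groups did not overlap, yet its interaction of -0.93 ± 0.44 (SE; limma, adjusted p = 0.51) did not pass. Rad54l, a motor protein that moves along DNA, differed by 0.07 and 0.21, and Xrcc3 by -0.19 and 0.58, with a standard error of 0.46.

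The 3 Fanconi anaemia genes act on crosslinks between strands. They had 0 calls in wild type and knockout, against 24.1% and 23.5% of all genes. All 3 values were negative in wild type, with a median of -0.34, and also with quantile normalization (-0.56) and centred arrays (-0.55), but all 3 were positive with the Xist and Y-linked pattern as a covariate (0.31). Fancd2, the protein that is monoubiquitinated in the pathway, differed by -0.02 and -0.08. Fancc, a core complex member, differed by -0.75 ± 0.44 and -0.34 ± 0.44 (SE), the widest intervals of the 3.

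Fanca, another core complex member, had 8.65 and 8.37 in unirradiated wild type, 7.48 and 7.97 in unirradiated knockout, 7.84, 8.12 and 8.55 in irradiated wild type and 7.80, 8.47 and 8.45 in irradiated knockout. Unirradiated knockout lay below unirradiated wild type without overlap, and the irradiated groups lay across one another. The knockout minus wild type difference without irradiation was -0.78 ± 0.32 (SE; limma, unadjusted p = 0.036, adjusted p = 0.26). Its irradiation difference in knockout, which uses the same 2 unirradiated knockout arrays, was 0.51 ± 0.29 (adjusted p = 0.23).

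The 5 genes of end joining had 0 calls in wild type and knockout, against 24.1% and 23.5% of all genes. All 5 had intervals within 1 log2 unit in both, compared with 53.4% and 53.5% of all genes. Their medians were 0.27 in wild type and 0.17 in knockout, and 0.06 and 0.05 with centred arrays. Xrcc5 and Xrcc6, which encode the Ku proteins that cap broken ends, differed by 0.27 and 0.17 in wild type and by -0.16 and 0.36 in knockout. Prkdc, the catalytic subunit of the kinase they recruit, differed by 0.36 and 0.28 (limma, adjusted p = 0.20 and 0.31). It was 1 of 3 repair genes (8.57%) whose irradiated arrays did not overlap the unirradiated ones in knockout, against 54.0% of all genes. Lig4, which seals the ends, differed by -0.11 and 0.17.

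Xrcc4, the scaffold of ligase IV, had the second smallest p in wild type. It had 7.84 and 8.06 without irradiation and 8.28, 8.47 and 8.51 after it, and in knockout 8.46 and 8.63, then 8.23, 8.50 and 8.0. As with Xpa, the unirradiated wild type mean was the lowest of the 4, although an irradiated knockout array lay between its values. The wild type difference was 0.47 ± 0.20 (SE; limma, unadjusted p = 0.041, adjusted p = 0.12) and the interaction -0.78 ± 0.28 (unadjusted p = 0.021, adjusted p = 0.38). A second Xrcc4 probe set gave 0.64 in wild type and -0.18 in knockout.

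Of the 7 tested genes of base excision and single-strand break repair 0 changed in either genotype, against 24.1% and 23.5% of all genes. All 7 differed by under 0.5 log2 units in both genotypes, compared with 59.0% and 59.1% of all genes. Parp1 and Parp2, the polymerases that mark nicked DNA with poly(ADP-ribose), differed by -0.02 and 0.32 in wild type and by -0.05 and 0.00 in knockout. The scaffold Xrcc1 differed by 0.14 and -0.18, and its partner ligase gene Lig3 by -0.07 and -0.09. The replicative ligase gene Lig1 differed by -0.43 and -0.03, the uracil glycosylase gene Ung by -0.40 and -0.28, and the endonuclease gene Apex1 by -0.13 and 0.14. In mismatch repair, Msh6, which recognises the mismatch, differed by -0.03 and -0.13, and Pms2, which nicks the strand beside it, by 0.38 and -0.17.

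**Figure D3:**
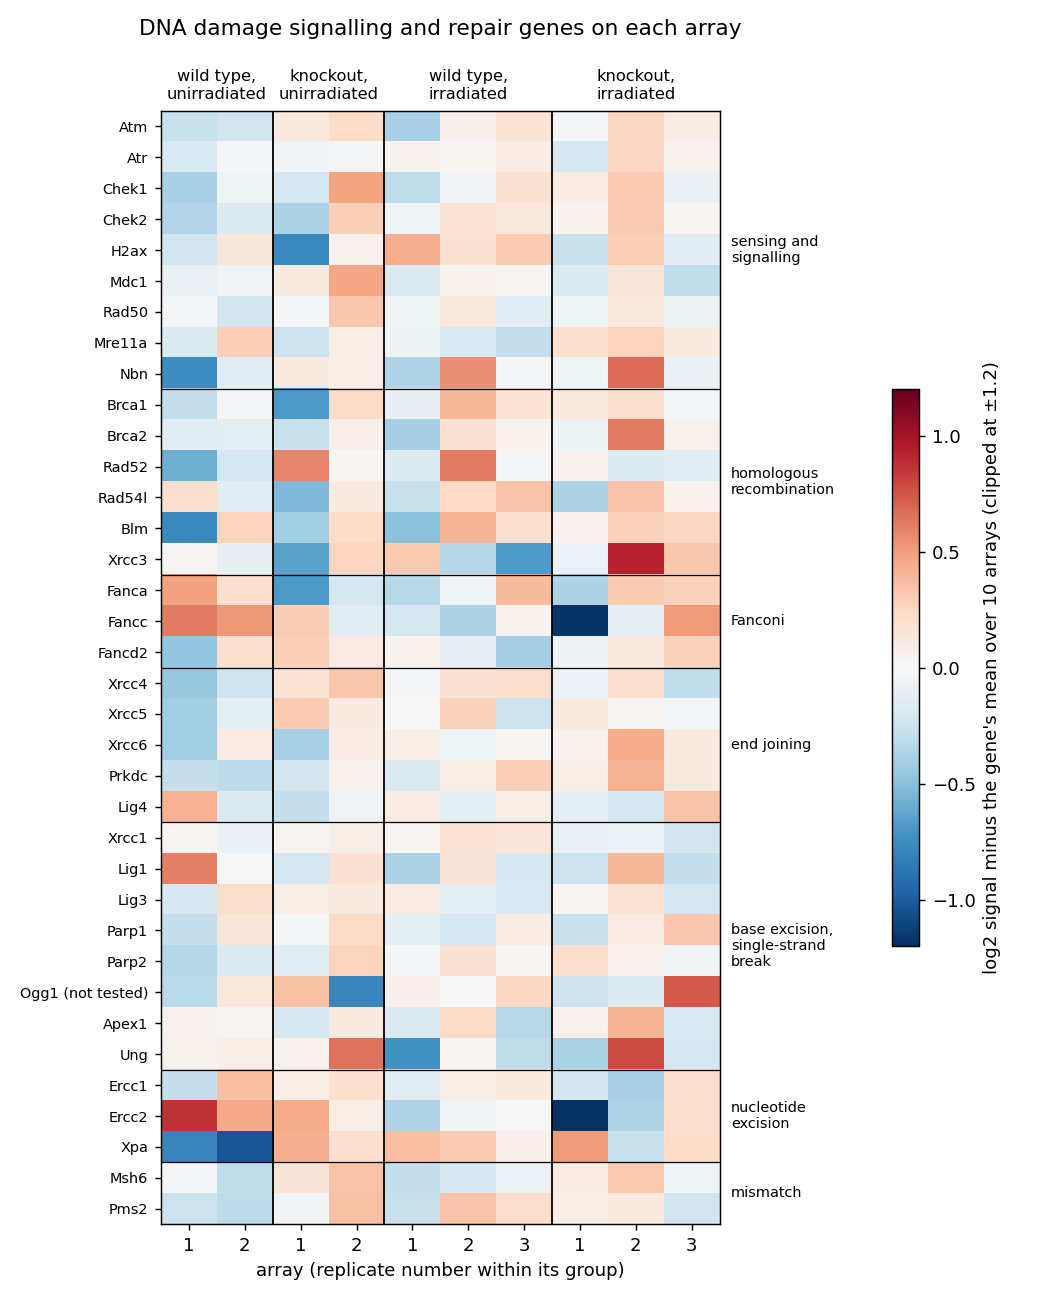
Signal of the 36 measured repair genes (rows, by pathway) on each of the 10 arrays (columns, by group), as the log2 signal minus that gene's mean over the 10 arrays; red is above and blue below the mean, and the colour scale ends at 1.2 either way. Xpa stands out in blue on both unirradiated wild type arrays (8.10 and 7.86), and most other rows show no block of colour that follows the groups.

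Where several probe sets of a repair gene were tested, they often disagreed in sign. That held for 5 of 12 genes in wild type, Apex1, Atr, Ercc1, Mre11a and Parp1, and for 7 of 12 in knockout, Atm, Atr, Chek1, Ercc1, Lig3, Mre11a and Parp1. Parp1 spanned -0.02 to 0.60 in wild type and Atr -1.12 to 0.06 in knockout. Apex1 was positive throughout in knockout but spanned 0.14 to 0.58. With every probe set tested on its own in limma, 1 of 51 repair probe sets was called for irradiation in wild type, against 20.4% of all probe sets, and 0 of 51 in knockout, against 20.3%. The Xpa probe set was the 1 called. The Apex1 value of 0.58 came nearest in knockout (adjusted p = 0.052).

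The third comparison was knockout against wild type without irradiation. In limma 0 of the 35 repair genes were called, against 1.23% of all genes. An unadjusted p under 0.05 was reached by 5 repair genes, against 16.6% of all genes. The repair genes' median difference was 0.15 against 0.07 over all genes (0.03 and 0.01 with quantile normalization), and ran from 0.01 without unirradiated wild type replicate 1 to 0.30 without unirradiated knockout replicate 1, where 30 of 35 values were positive. Without unirradiated wild type replicate 2 it was 0.27, and without unirradiated knockout replicate 2 it was 0.03. Their median size was 0.29 against 0.28. By size they thus lay close to all genes. The 3 smallest p-values belonged to Xpa, Xrcc4 (0.60 ± 0.22, adjusted p = 0.22) and Fanca. In 16 genes (45.7%) the 2 arrays of each genotype did not overlap, 13 of them higher in knockout, against 47.8% of all genes.

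The fourth comparison was knockout against wild type after irradiation. In limma 0 repair genes were called, against 0% of all genes; 0 repair genes and 3.98% of all genes (500) had an unadjusted p under 0.05. Here 32 of the 35 genes had an interval within 1 log2 unit, compared with 78.0% of all genes, the exceptions being Ercc2, Ung and Xrcc3. Groups of 3 arrays did not overlap for 3 genes (8.57%), against 8.42% of all genes. Those 3 also had the smallest p-values.

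Msh6 had 9.67, 9.89 and 9.52 in irradiated knockout and 9.30, 9.37 and 9.50 in irradiated wild type, a difference of 0.31 ± 0.15 (SE). Mre11a had 8.60, 8.67 and 8.51 against 8.34, 8.22 and 8.13, a difference of 0.36 ± 0.18. Xrcc1 had 8.42, 8.44 and 8.29 against 8.54, 8.68 and 8.66, a difference of -0.24 ± 0.14. Knockout lay above wild type in the first 2 genes and below it in the third, and each had an adjusted p of 1.0 in limma.

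For the interaction 0 repair genes were called in limma, against 0.207% of all genes, and 2 genes, Xpa and Xrcc4, had an unadjusted p under 0.05, against 10.4% of all genes. The standard errors were larger here, with a median of 0.33. An interval within 1 log2 unit was reached by 16 of 35 genes, compared with 43.3% of all genes, so for the other 19 the interval reached past a difference of that size. Of those 19, Xpa and Xrcc4 had intervals that did not include 0.

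Genes linked to repair outside the 37 were also looked at. Of 68 other repair genes tested, 4 changed with irradiation in wild type (5.88%) and 6 in knockout (8.82%), against 24.1% and 23.5% of all genes. In wild type Ddb2, the sensor of ultraviolet damage, rose by 0.73 ± 0.16, and Rev3l, the catalytic subunit of a translesion polymerase, by 0.54 ± 0.15, while the helicase gene Recql5 fell by 1.23 (SE; limma, adjusted p of those named from 0.011 to 0.026). In knockout the gap-filling polymerase gene Polb rose by 0.84 and Rpa3, a subunit of the single-strand binding complex, by 0.68. Recql5 fell by 1.33, the mismatch gene Msh3 fell by 0.63 and Smc6, of a chromosome maintenance complex, fell by 0.58 (limma, adjusted p of those named from 0.0094 to 0.043). With arrays centred on their median over tested genes, wild type had 2 rises and 2 falls, against 28.5% of all genes called. Knockout then had 2 rises and 4 falls, against 26.3%. Without irradiated knockout replicate 1 the knockout counts were 1 and 1, against 13.7% of all genes. With the Xist and Y-linked pattern as a covariate 0 were called in wild type, against 0.127% of all genes. In knockout that fit gave 1 rise and 1 fall, against 13.6%.

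Targets of p53 changed in both directions. In wild type 8 of 19 tested targets changed (42.1%, against 24.1% of all genes), 5 upward and 3 downward, and in knockout 7 did (36.8%, against 23.5%), 5 upward and 2 downward. In wild type the kinase gene Plk2 rose by 2.19, the receptor gene Eda2r by 3.39 and Phlda3 by 1.92. Cdkn1a, the cell cycle inhibitor p21, fell by 1.55, the stress gene Gadd45a fell by 1.57 and the apoptosis gene Pmaip1 fell by 0.89. In knockout the nuclease gene Aen rose by 0.75, Phlda3 by 1.44 and the stress gene Sesn2 by 1.70, while Cdkn1a fell by 0.55 and Gadd45a fell by 0.86. With centred arrays the wild type split was 4 up and 4 down, against 28.5% of all genes called. Without irradiated knockout replicate 1 the knockout split was 2 up and 1 down, against 13.7%. With the Xist and Y-linked pattern as a covariate, 1 target was called in wild type, a fall, against 0.127% of all genes. In knockout 3 targets were called in that fit, 2 up and 1 down, against 13.6%. The difference between the lists was not tested.

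Genes of proliferation, with which many repair genes are known to be transcribed, gave 0 calls among 27 in wild type (1 with an unadjusted p under 0.05), against 24.1% of all genes, and 2 in knockout, against 23.5%, the ribonucleotide reductase genes Rrm2 and Rrm1 (higher by 1.10 and 0.74). With centred arrays, without irradiated knockout replicate 1, and with the pattern as a covariate, the knockout count was 1. The shares of all genes called in those fits were 26.3%, 13.7% and 13.6%, in that order. Averaged per array, the repair genes ran from 8.47 to 8.82 and the proliferation genes from 9.13 to 10.01. The lowest proliferation mean was that of unirradiated knockout replicate 1.

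**Figure D4:**
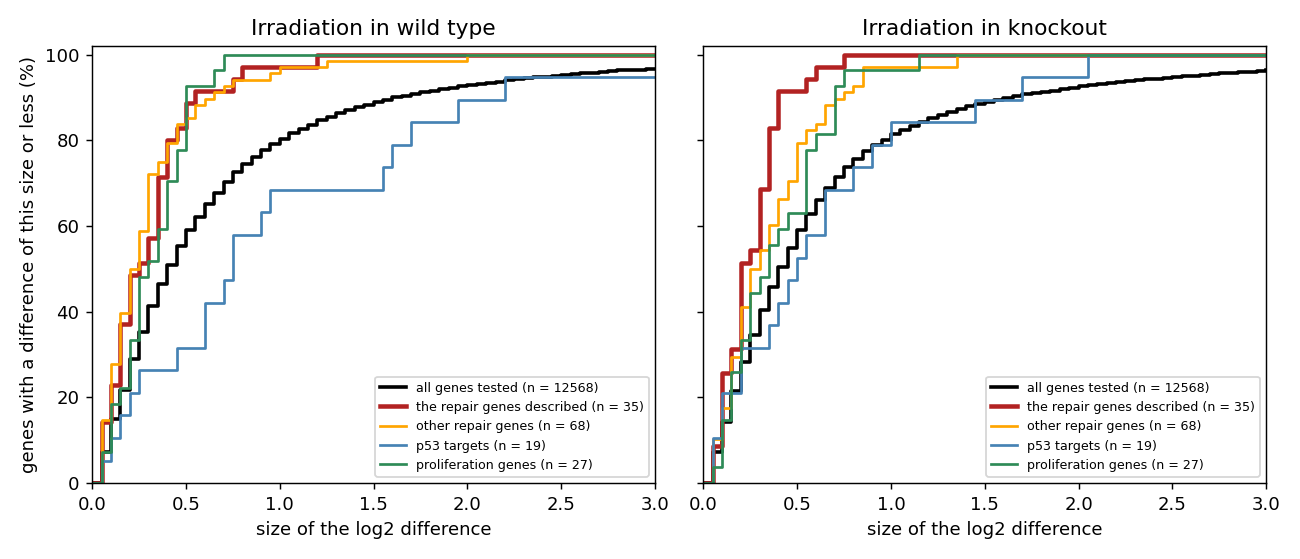
Share of genes (vertical axis, percent) whose irradiation difference is at or under a given size (horizontal axis, log2 units), in wild type (left) and knockout (right), for the 35 tested repair genes, 68 other repair genes, 19 p53 targets, 27 proliferation genes and all 12568 genes; both lists of repair genes and the proliferation genes run above the all-gene curve over most of the axis. The repair genes have a median size of 0.23 in wild type and 0.18 in knockout, against 0.39 and 0.40 for all genes.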

How the data were processed

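The deposited values are log2 signals on which the authors had run MAS5, per the submitters' processing notes (version not given in the sources used here). That they are log2 was judged from the values: raised to linear scale, each array's mean trimmed by 2% at either tail was 500. No detection calls were used. Values were taken as deposited. Platform annotation named 1 gene for 34945 of 45101 probe sets, several for 932 and none for 9160, with 64 control probe sets besides. A gene, represented by its brightest probe set, entered the test where 2 or more arrays had it above their own median. Differences were fitted with limma 3.58.1 in R 4.3.3 (1 mean per group, 10 arrays, 6 residual degrees of freedom, variance prior following the mean) with Benjamini-Hochberg adjustment at 0.05 over all genes tested. The fit was tested on simulated data with 200 changed genes, fewer than irradiation changed here. Changes of 1 log2 unit were recovered in 36.7% of cases for irradiation in wild type, 54.7% in knockout and 6.6% for the interaction. At 0.5 log2 units these shares were 2.6%, 6.1% and 2.9%, so most changes of that size were missed in the simulation. Benjamini-Hochberg adjustment is less strict where more genes change, so for irradiation the simulated shares may be too low.

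The repair genes, the other gene lists and the comparisons were chosen with earlier results of these data known. Genes named with values on every array are those called in a comparison, or the 3 with the smallest p where none was; genes whose probe sets disagree in sign, and up to 3 genes per direction of the other lists, are named too, except 1 gene that is not reported here. Alternatives covered normalization, pseudocount, filter, variance prior, probe set rule, arrays in the fit, replicate block, sex pattern and leaving out each array. Testing every probe set and centring arrays were added after seeing the data. The number of arrays limits the precision. The p-values set a difference against the spread between arrays of the same group, moderated over all genes tested. Promoter sequences are from RefSeq (GRCm38.p6), limited to the bases before an annotated start, which can lie inside a gene that has others further upstream.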

Additional observations from a re-analysis of the deposited data

How the results depend on the processing

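The count of repair genes called stayed at 0 under all 20 alternatives for irradiation in knockout, all 20 for knockout against wild type after irradiation and all 19 for the interaction. For irradiation in wild type it stayed at 1 under 19 of 20 alternatives, always Xpa, and was 0 with the sex pattern as a covariate; leaving out 1 array gave 1 to 1. For knockout against wild type without irradiation it was 0 under 15 of 20 and 1 under 5, each time Xpa: with probe sets averaged per gene (2.34, limma adjusted p = 0.048), with the sex pattern as a covariate (0.046), with only the groups compared (0.047), and, among fits that left out 1 array (0 to 1), without irradiated knockout replicate 1 (0.045) or replicate 2 (0.02). Over all alternatives that adjusted p ran from 0.02 to 0.3. The averaged value of 2.34 includes the dim Xpa probe sets, below the array median on every array, whose differences are uncertain. Among the 17 single-gene values followed under each alternative, those that changed sign were Ercc2 in wild type (0.41 with the sex covariate), Xpa in knockout (0.06 without irradiated knockout replicate 2; range -0.33 to 0.06 over the fits that left out 1 array) and Xpa between irradiated groups (0.17 with averaged probe sets, 0.27 with the sex covariate, -0.27 to 0.13 over the fits that left out 1 array, the highest without irradiated knockout replicate 2). The cause was not tested in any of these. Deviations of same-numbered arrays had low correlations (13 pairs, -0.2 to 0.16, 3 over 0.1). In groups of 2 arrays the deviations mirror each other, so this check cannot decide whether the numbers pair the samples. With the replicate block 1 repair gene was called in wild type (Xpa, limma adjusted p = 0.014) and 0 in the other comparisons. All-gene calls were then 1995 and 2075 for irradiation in wild type and knockout, 70 and 0 between genotypes and 3 for the interaction. Without irradiation the all-gene count of 154 was 41 to 257 when 1 array was left out. With 2 or 3 arrays a group, differences under about 0.5 log2 units are within the intervals of most of these genes.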
